A study of Mus musculus with 14 samples.

Results

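The deposited comparison tables list 81411 loci, and 29330 of them carry no gene symbol. The loci described here are the 7224 of those whose mean of the wild-type vehicle and mutant vehicle values was 1 or more in the table comparing these groups. The values are FPKM, fragments per kilobase scaled to the size of the library, and the loci carry these levels by construction. The loci were thus chosen by measured values, and these levels are given as a description, with no test. RNA had been sequenced from the hippocampus of C57BL6 mice, 30 days old, that were wild type (KMT2D+/+) or heterozygous for the bGeo allele (KMT2D+/bGeo). Kmt2d encodes a methyltransferase of histone H3 lysine 4. From 2 weeks of age and for 2 weeks the mice received, by gavage, either methylcellulose vehicle or TAK-418 in that vehicle at 1 mg/kg/day. TAK-418 inhibits the histone demethylase LSD1. Of the 14 libraries, 5 came from wild types given TAK-418 and 3 from each of the other 3 groups. The series' design text gives 3 to 4 animals per group, whereas the labels give 5 for wild-type TAK-418, and all 5 are used as labelled. Replicate numbers only name libraries, and no label says how libraries share litters or handling, so p-values measure the spread between these libraries.

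A locus without a symbol is a stretch of genome where reads were assembled into a transcript that matched no gene of the annotation used for the tables. Such stretches can be spliced long noncoding RNAs, extensions of genes, copies of repeated or structural RNA genes, or single short blocks of reads. An assembler joins reads that cross introns into multi-exon transcripts, whereas a block of overlapping reads with no intron gives a single-exon transcript without a known strand. FPKM corrects for length, and a small number of reads on a very short locus can give a large value.

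Reference sequence was at hand for few of the loci, and 6 are shown because they place the main kinds side by side, chosen after their values were seen. The first 3 loci held a transcript in all 14 libraries and the last 3 in 1 library each. Capitals mark the bases inside the locus, all sequences are from GRCm38, 5′ to 3′ on the strand of the annotated gene, and a promoter window runs from 250 bases before to 50 after the start of a RefSeq gene. XLOC_031523 (chr17:56241714-56242670) is shown by the promoter window of A230051N06Rik, a long noncoding RNA gene (chr17:56241466-56241765, plus strand).
XLOC_031523 promoter window: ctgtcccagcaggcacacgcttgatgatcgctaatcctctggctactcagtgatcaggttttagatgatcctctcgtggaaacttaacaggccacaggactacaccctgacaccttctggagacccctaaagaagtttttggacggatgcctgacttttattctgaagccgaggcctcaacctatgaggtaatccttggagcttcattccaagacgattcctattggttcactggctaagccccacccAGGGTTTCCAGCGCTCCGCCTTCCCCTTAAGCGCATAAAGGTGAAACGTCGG
XLOC_032631 (chr17:4082093-4082995) ends where exon 1 of the long noncoding RNA gene 4930470H14Rik begins, and the first 300 bases of that exon are shown (chr17:4082696-4082995, minus strand).
XLOC_032631 exon 1: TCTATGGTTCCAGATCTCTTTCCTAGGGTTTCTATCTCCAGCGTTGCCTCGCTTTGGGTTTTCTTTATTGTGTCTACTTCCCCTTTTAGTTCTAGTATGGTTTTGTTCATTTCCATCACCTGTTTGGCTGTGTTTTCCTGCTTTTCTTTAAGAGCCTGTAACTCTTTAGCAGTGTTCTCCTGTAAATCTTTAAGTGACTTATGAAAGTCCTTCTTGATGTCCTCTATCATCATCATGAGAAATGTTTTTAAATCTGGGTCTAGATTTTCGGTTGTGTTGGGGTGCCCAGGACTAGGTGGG
XLOC_036190 (chr19:38348215-38349657) holds the whole promoter window of Gm32960 (chr19:38348450-38348749, plus strand).
XLOC_036190 promoter window: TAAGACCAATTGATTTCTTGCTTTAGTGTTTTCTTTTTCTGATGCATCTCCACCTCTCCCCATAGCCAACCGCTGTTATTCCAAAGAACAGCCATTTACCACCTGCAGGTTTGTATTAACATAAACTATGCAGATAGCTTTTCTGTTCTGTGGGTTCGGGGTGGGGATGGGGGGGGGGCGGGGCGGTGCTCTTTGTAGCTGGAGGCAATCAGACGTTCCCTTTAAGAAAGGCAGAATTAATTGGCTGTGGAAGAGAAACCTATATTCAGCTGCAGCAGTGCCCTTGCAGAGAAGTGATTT
XLOC_033054 (chr17:48095386-48095485) lies inside an exon of the GENCODE long noncoding RNA gene CAAA01189291.1 (chr17:48095286-48095585 shown, plus strand).
XLOC_033054 exon: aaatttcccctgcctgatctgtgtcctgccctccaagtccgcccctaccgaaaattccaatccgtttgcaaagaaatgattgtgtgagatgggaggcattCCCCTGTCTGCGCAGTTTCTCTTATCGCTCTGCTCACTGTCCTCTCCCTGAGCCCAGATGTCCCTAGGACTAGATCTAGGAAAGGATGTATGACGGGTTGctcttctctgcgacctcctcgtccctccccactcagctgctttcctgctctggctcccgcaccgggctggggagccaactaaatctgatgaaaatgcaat
XLOC_047837 (chr3:129423009-129423140) lies wholly in the promoter window of Gm35787 (chr3:129422868-129423167, plus strand), and XLOC_016464 (chr12:12147707-12147823) in that of Gm34348 (chr12:12147646-12147945, minus strand).
XLOC_047837 promoter window: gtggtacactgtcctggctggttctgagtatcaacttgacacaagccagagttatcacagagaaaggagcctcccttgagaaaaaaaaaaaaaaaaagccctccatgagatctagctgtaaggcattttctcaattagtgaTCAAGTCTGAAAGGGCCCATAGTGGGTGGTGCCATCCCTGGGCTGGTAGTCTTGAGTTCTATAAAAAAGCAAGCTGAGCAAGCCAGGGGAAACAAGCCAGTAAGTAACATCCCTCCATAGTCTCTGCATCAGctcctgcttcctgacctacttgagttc
XLOC_016464 promoter window: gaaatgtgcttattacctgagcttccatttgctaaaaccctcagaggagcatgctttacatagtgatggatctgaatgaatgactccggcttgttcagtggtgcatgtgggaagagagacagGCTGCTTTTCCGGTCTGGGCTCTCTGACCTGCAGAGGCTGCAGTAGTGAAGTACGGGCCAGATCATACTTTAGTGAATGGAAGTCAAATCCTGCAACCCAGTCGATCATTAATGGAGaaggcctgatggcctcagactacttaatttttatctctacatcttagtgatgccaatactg
The bases inside the locus were 57.7% G or C in XLOC_031523, 41.0% in XLOC_032631 and 46.7% in XLOC_036190. They were 54.0% G or C in XLOC_033054, 50% in XLOC_047837 and 50.4% in XLOC_016464. The window of XLOC_047837 holds a run of 17 identical bases, the longest among the 6 stretches.

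The libraries differed in ways that touch these loci. The smallest unit of abundance times length, here called a step, was 0.0167 to 0.0285 per kilobase in 13 libraries and 0.00597 in wild-type TAK-418 replicate 1, and a smaller step goes with a deeper library. Scaled abundance below is the assembler's value for each transcript, summed per locus and brought to a common scale between libraries. Kmt2d itself had a scaled abundance of 9.35 to 18.04 over the 14 libraries, and the genotypes overlapped. The 6 hippocampal neuron markers had a summed abundance of 1495 to 2962, the lowest in wild-type TAK-418 replicate 2, where Nrgn was listed at 0. Spink8 was listed at 0 in wild-type TAK-418 replicate 1, and all 6 had a value in the other 12 libraries. The 7 choroid plexus markers, led by Ttr, summed to 6506 in wild-type vehicle replicate 3, 5065 in mutant vehicle replicate 1, 912 in mutant vehicle replicate 3 and 609 in mutant TAK-418 replicate 1. They summed to 15.97 to 44.0 in the other 10 libraries. The 4 thalamic markers summed to 24.1 to 31.3 and the 5 blood markers to 310 to 1005.

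Most of the loci were short. Their median length was 186 bases, with 25% at or under 154 and 75% at or under 231. Named loci at the same minimum had a median length of 51010.0 bases. Of the 7224 loci, 6937 were at most 1000 bases long and 287 were longer. The shortest were 100 bases, and the longest, XLOC_070831 (chr8:48225730-49756399), spanned 1530670 bases across Tenm3, which encodes a teneurin adhesion protein of neurons. No transcript was assigned to XLOC_070831 in any library, and its FPKM was 1.69 in wild-type vehicle, 2.14 in mutant vehicle, 0.481 in wild-type TAK-418 and 0.733 in mutant TAK-418. XLOC_000003 (chr1:3199882-3671707), across Xkr4 and its sense intronic RNA gene Gm19938, also had no assigned transcript, with an FPKM of 12.3 to 13.6 in the 4 groups. In all, 88 of the 287 long loci shared their span with a named locus, XLOC_070831 and XLOC_000003 among them. On equal spans a transcript was given to the named locus, so these 88 could hold none by that rule.

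Up to 1000 bases, level fell steeply with length. The 50 loci of 100 bases had a median vehicle mean of 13231.5 FPKM and held 64.1% of the summed value of all 7224. The median was 21.3 for the next 1546 loci, of up to 150 bases, 2.09 for the 2647 of up to 200, 1.31 for the 2308 of up to 300 and 1.14 for the 386 of up to 1000. It was higher again for longer loci, at 1.58 for the 126 of up to 10000 bases and 1.47 for the 161 beyond. The smallest wild-type vehicle value above 0 followed the same course, from 17850.0 at 100 bases to 166 at 110, 37.2 at 120, 3.18 at 150, 0.450 at 200 and 0.0925 at 300. That fall was far steeper than division by locus length would give, and how length enters these values was not tested. At 150 bases the smallest value above 0 in 1 vehicle group was therefore enough for a mean over 1.

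**Figure D1:**
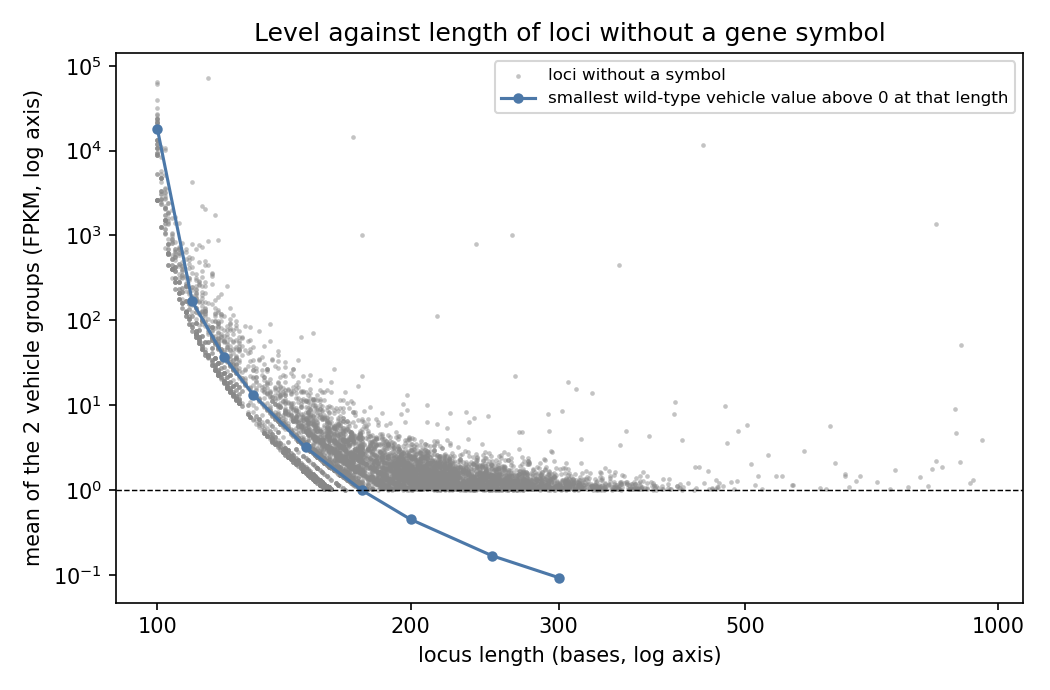
Each grey point is a locus without a symbol of up to 1000 bases, with its length on a log axis and the mean of the 2 vehicle groups in FPKM on a log axis. The blue line joins the smallest wild-type vehicle value above 0 at 9 lengths, from 17850.0 at 100 bases to 0.0925 at 300. The dashed line is the minimum of 1, and levels rise steeply towards the shortest loci.

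At 100 bases the wild-type vehicle values took few sizes. Of the 50 loci, 24 were at 0 and the other 26 were whole sums of 3 amounts, 17850.0, 21594.4 and 26463.1, within 0.01%. There are 3 libraries in that group. A single amount accounted for 14 loci, a sum of 2 for 9, a sum of 3 for 2, and 1 locus needed more. Equal values were frequent at other lengths as well. Among loci of up to 300 bases with a wild-type vehicle value above 0, 57.7% had exactly the value of another locus of the same length, against 0.828% of named loci at the same minimum with a span of their own. The corresponding shares in mutant TAK-418 were 61.1% and 0.278%.

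The 8 loci with the highest vehicle mean show what this does to a ranking by level. Apart from XLOC_005012, described further on, they are the 100-base loci XLOC_070929, XLOC_078686, XLOC_030633, XLOC_048054, XLOC_017419, XLOC_013473 and XLOC_041910. Their vehicle means ran from 24240.5 to 64327.5 FPKM. Each of these 7 had an assembled transcript in 1 of the 14 libraries, of 2 to 4 steps. XLOC_070929 (chr8:56349330-56349429, 28287 bases from Hpgd, which encodes a prostaglandin dehydrogenase) had 43188.9 FPKM in wild-type vehicle, 85466.1 in mutant vehicle, 0 in wild-type TAK-418 and 22199.1 in mutant TAK-418. Its transcript was in mutant vehicle replicate 2 alone, with 2 steps and a scaled abundance of 0.395. XLOC_030633 (chr16:83308569-83308668) had 79389.4 FPKM in wild-type vehicle and was listed at 0 in the other 3 groups, and its only transcript, of 3 steps, was in wild-type vehicle replicate 3.

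Near the minimum the loci looked alike on both sides. Just inside were XLOC_005460 with a vehicle mean of 1.0000 FPKM, XLOC_028321 with 1.0001 and XLOC_056581 with 1.0002, and just outside were XLOC_027634 with 0.99994, XLOC_013451 with 0.99974 and XLOC_067446 with 0.99964. All 6 were 217 to 400 bases long and had a transcript in 1 or 2 libraries, of 1 to 6 steps.

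The assembled transcripts show how many libraries each locus came from. A transcript was given to a locus when at least 50% of its exonic bases lay inside. Of several such loci it went to the one with the most similar span, and on equal spans to a named locus first. Under this rule 5945 loci (82.3%) had a transcript in exactly 1 library, 751 in 2, 405 in 3 or more, and 123 in none. The 123 include the 88 loci that share their span with a named locus, which the rule leaves empty. In all 14 libraries 30 had one (0.415%). With every overlapping transcript counted, 91 had one in all 14, 5942 in exactly 1, and 0 in none. Of the 4370 named loci that shared their span with no other locus, 4075 (93.2%) had one in all 14. Of the 6937 loci of up to 1000 bases, 6397 had exactly the ends of an assembled single-exon transcript, and for 6394 of these the transcript was in a single library. Those 6394 transcripts held a median of 3 steps, with 25% at or under 2 and 75% at or under 4. At most 3 steps were found in 62.4% and at most 5 in 88.9%. XLOC_016464, whose sequence is shown above, had 1 step in mutant vehicle replicate 1, XLOC_033054 had 3 steps in mutant vehicle replicate 3, and XLOC_047837 had 9 steps in mutant vehicle replicate 1.

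**Figure D2:**
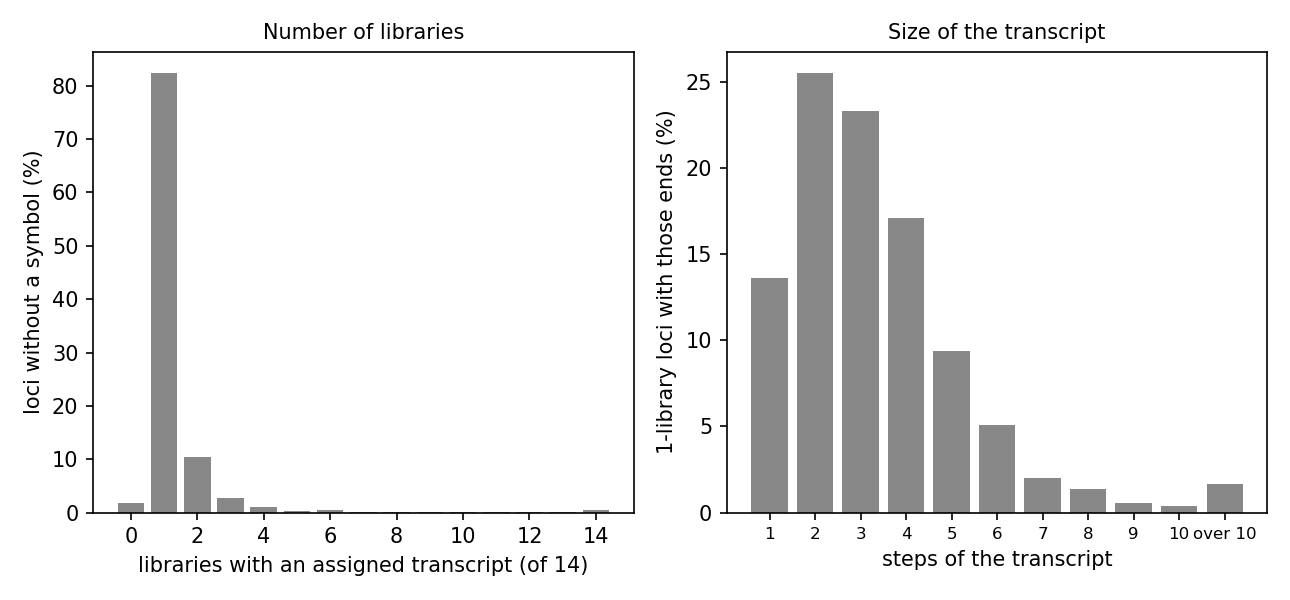
The left panel gives the percent of the 7224 loci by the number of libraries with an assigned transcript, with 82.3% at 1 library and 0.415% at 14. The right panel gives the number of steps of the transcript for the 6394 loci that have the ends of a single-exon transcript of 1 library, with the highest bar, 25.5%, at 2 steps.

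Almost all of the loci overlapped no annotated gene, which follows largely from choosing loci without a symbol. Of the 25987 named loci of any level with a span of their own, 90.7% had exactly the span of a GENCODE gene. In GENCODE M21 (GRCm38, the build that the submitters name as mm10), 7015 loci (97.1%) overlapped no gene, 125 overlapped an exon and 84 lay in an intron. RefSeq gene spans held 806 loci (11.2%). Chromosomes 16 to 19 carried 1107 of the 7224 loci (15.3%) and 140 of the 209 that overlapped a GENCODE gene (67.0%). The median distance to the nearest named locus was 23857.0 bases, with 234 loci within 1000 bases but not touching and a greatest distance of 916292. Chromosome 1 held the most loci, 619, and chromosome Y the fewest, 21.

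Among the exonic loci, 55 overlapped a protein-coding gene, 31 a lincRNA and 17 a processed pseudogene. The loci with the highest vehicle mean in each of 6 biotypes were XLOC_000003, above, and 5 short loci. XLOC_030254 (chr16:58031828-58031927), tied with XLOC_033054 at a vehicle mean of 2646 FPKM, lay in an intron of the lincRNA gene Gm49575, and XLOC_030121 (chr16:50636358-50636460) in one of the antisense RNA gene 4930542D17Rik. XLOC_030036 (chr16:45529742-45529848) lay in an intron of the protein-coding gene Gm17783 and XLOC_035196 (chr18:48010414-48010527) in one of AC150274.2, a sense overlapping RNA gene. The 4 intronic loci each had a transcript in 1 library, of 1 to 6 steps. XLOC_035182 (chr18:46942054-46942188) overlapped the processed pseudogene AC132100.1 and had one in 5 libraries. Its scaled abundance was 1.95 in wild-type vehicle replicate 2, 7.31 and 4.18 in replicates 2 and 4 of wild-type TAK-418, and 6.28 and 4.03 in replicates 2 and 3 of mutant TAK-418. The other 9 libraries held none. Reads of a processed pseudogene cannot be told from those of its parent gene here.

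The levels of the loci differed between the 4 groups, and the vehicle groups are the ones that chose them. The median FPKM was 1.60 in wild-type vehicle, 1.65 in mutant vehicle, 0.423 in wild-type TAK-418 and 0.894 in mutant TAK-418. Named loci at the same minimum had medians of 11.2 in each group. The number of loci listed at 0 was 1224, 1064, 1766 and 2184 in the same order, and the number at 1 or more was 5169, 5230, 1887 and 3346. With the same minimum applied to the TAK-418 table, 4615 loci without a symbol would have been chosen, of which 2930 were shared, 40.6% of the vehicle list and 63.5% of the TAK-418 list. For named loci the shared part was 97.9% and 98.0%. The smallest value above 0 also differed by group. At 150 bases it was 3.18 FPKM in wild-type vehicle, 3.19 in mutant vehicle, 0.551 in wild-type TAK-418 and 2.50 in mutant TAK-418.

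Loci were also sorted by the group whose library gave their ends. The 2014 loci whose ends came from a single wild-type vehicle library had a median of 2.83 FPKM in that group and 0.802 in mutant vehicle, where 34.7% were listed at 0. The 2617 that came from a mutant vehicle library had medians of 0.876 in wild-type vehicle and 2.92 in mutant vehicle. The 1068 from a mutant TAK-418 library had medians of 0.456 in wild-type TAK-418 and 2.43 in mutant TAK-418. The 695 from a wild-type TAK-418 library did not have their highest median there, with 1.80 in wild-type vehicle, 1.51 in mutant vehicle, 1.59 in wild-type TAK-418 and 0.987 in mutant TAK-418. All of these loci were chosen by their vehicle values, and each had a transcript in the group that gave its ends. The smallest value above 0 also differed by group. The order of these medians is thus largely built in, and they are given as a description.

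The number of loci with a transcript varied widely between libraries. It was 869, 1242 and 691 in wild-type vehicle, 1185, 1194 and 1199 in mutant vehicle, 184, 100, 650, 346 and 109 in wild-type TAK-418, and 505, 659 and 662 in mutant TAK-418. The vehicle counts are those of the groups that chose the loci. The rule did not use the values of the TAK-418 libraries. Yet 695 loci took their ends from a single wild-type TAK-418 library and 1068 from a single mutant TAK-418 library. Such loci count for the group that gave their ends, so the counts are not independent of how the loci were made. Under TAK-418, wild types had a mean of 278 ± 230 (SD, n = 5) and mutants one of 609 ± 89.8 (SD, n = 3). The 2 groups overlapped, since wild-type TAK-418 replicate 3 had more than mutant TAK-418 replicate 1. The difference of 331 loci did not pass an exact two-sided permutation test (p = 0.0714, where the smallest p that 5 against 3 libraries allow is 0.0179). Without wild-type TAK-418 replicate 3, which gave the overlap, it was 424 (exact permutation p = 0.0286), and nothing is read from that value. The number of all single-exon transcripts was 6007, 2217, 5537, 3741 and 2315 in wild-type TAK-418 and 7580, 6346 and 6895 in mutant TAK-418 libraries. It was also lower in wild types, without overlap, and wild-type replicate 1 and mutant replicate 1 had the most of their groups. Single-exon transcripts of up to 300 bases numbered 1178, 625, 3357, 1845 and 690 in wild-type TAK-418 and 3074, 3672 and 3728 in mutant TAK-418 libraries. The groups overlapped in this number, and its order within each group was that of the loci with a transcript. The part of either number in the result was not tested.

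**Figure D3:**
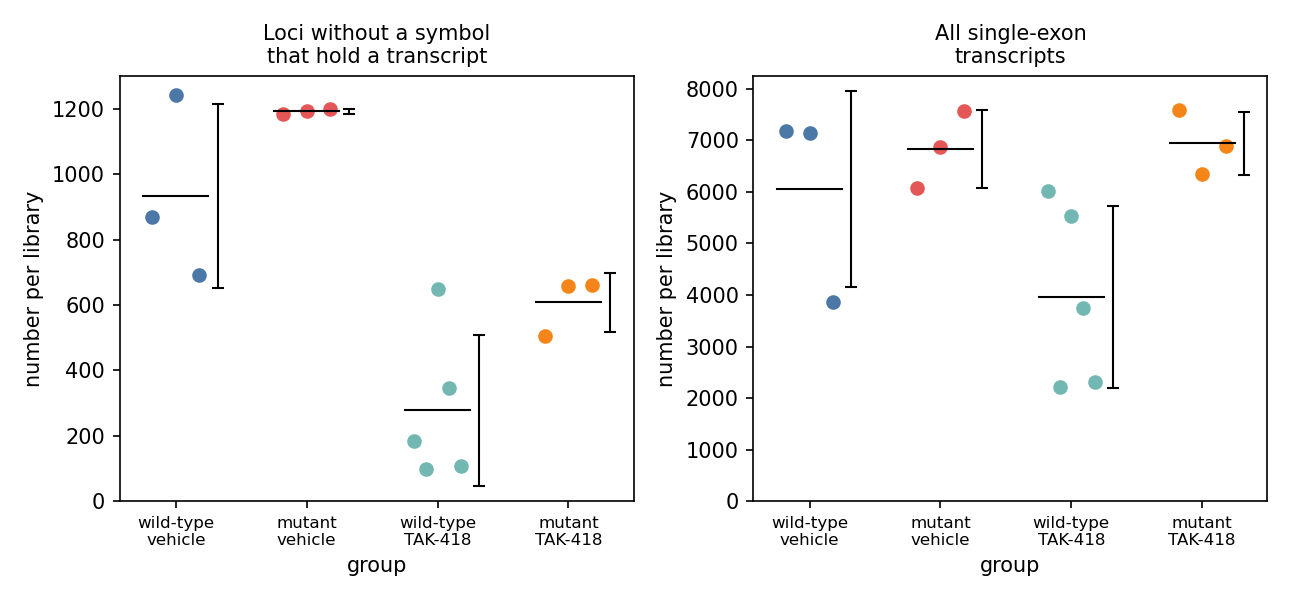
The left panel gives the number of loci without a symbol that held a transcript in each library, by group, and the right panel the number of all single-exon transcripts. Points are libraries, horizontal lines are group means and the bars beside them span 1 SD on either side. Wild-type TAK-418 replicates 2 and 5 are low in both panels, with 100 and 109 loci and 2217 and 2315 single-exon transcripts.

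In the 8 TAK-418 libraries a transcript was found at 5.56% ± 3.44 (SD, n = 8) of the loci without a symbol and at 60.4% ± 0.0669 (SD, n = 8) of the 13342 named loci at the same minimum. The share was lower for loci without a symbol in 8 of 8 libraries, with a difference of -54.8 percentage points. Since 2014 of the loci took their ends from a single wild-type vehicle library and 2617 from a single mutant vehicle library, a low share in the TAK-418 libraries is largely built in, and the difference is given as a description. Where named loci share a span, a transcript goes to 1 of them. Counted over named loci with a span of their own, it was 95.5% ± 0.170 (SD, n = 8) and the difference was -89.96 points.

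On the log2 scale, the scaled abundance summed over the loci averaged 12.02 ± 0.106 (SD, n = 5) among TAK-418 wild types and 13.4 ± 2.58 (SD, n = 3) among TAK-418 mutants. The difference of 1.39 did not pass an exact two-sided permutation test (p = 0.339). Mutant TAK-418 replicate 2 decided it, and without that library the difference was -0.10 (exact permutation p = 0.333).

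That library and mutant vehicle replicate 1 stood apart at 6 loci, which were chosen after their values were seen as those where both libraries were at least 5 times as high as each of the other 12. They are XLOC_004705 (chr1:102628126-102628364), XLOC_005012 (chr1:122357129-122357243), XLOC_034060 (chr18:68692055-68692318), XLOC_044557 (chr3:5860333-5860777), XLOC_057439 (chr6:3200766-3201609) and XLOC_061106 (chr6:49236447-49236621). None overlaps a GENCODE gene, XLOC_034060 lies in the RefSeq long noncoding RNA gene Gm30821, and the nearest named locus was 6260 to 104949 bases away. Together they made up 76.2% to 98.9% of the summed abundance of all 7224 loci in the 14 libraries.

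XLOC_044557 had a scaled abundance of 1075, 893 and 992 in wild-type vehicle, 22613, 1465 and 995 in mutant vehicle, 939, 1014, 809, 1027 and 1049 in wild-type TAK-418, and 829, 29257 and 973 in mutant TAK-418 libraries. The 2 high libraries were 22.8 and 29.5 times the median of the other 12. XLOC_057439 had 247, 115 and 160 in wild-type vehicle, 12679, 226 and 187 in mutant vehicle, 136, 151.3, 133, 191 and 184 in wild-type TAK-418, and 116, 6663 and 126 in mutant TAK-418 libraries. It was 81.3 times that median in mutant vehicle replicate 1 and 42.7 times in mutant TAK-418 replicate 2. At the other 4 loci the 2 libraries were 15.98 to 34.9 times the median. The remaining mutant libraries lay among or next to the wild types, so the genotypes overlapped at each of the 6.

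**Figure D4:**
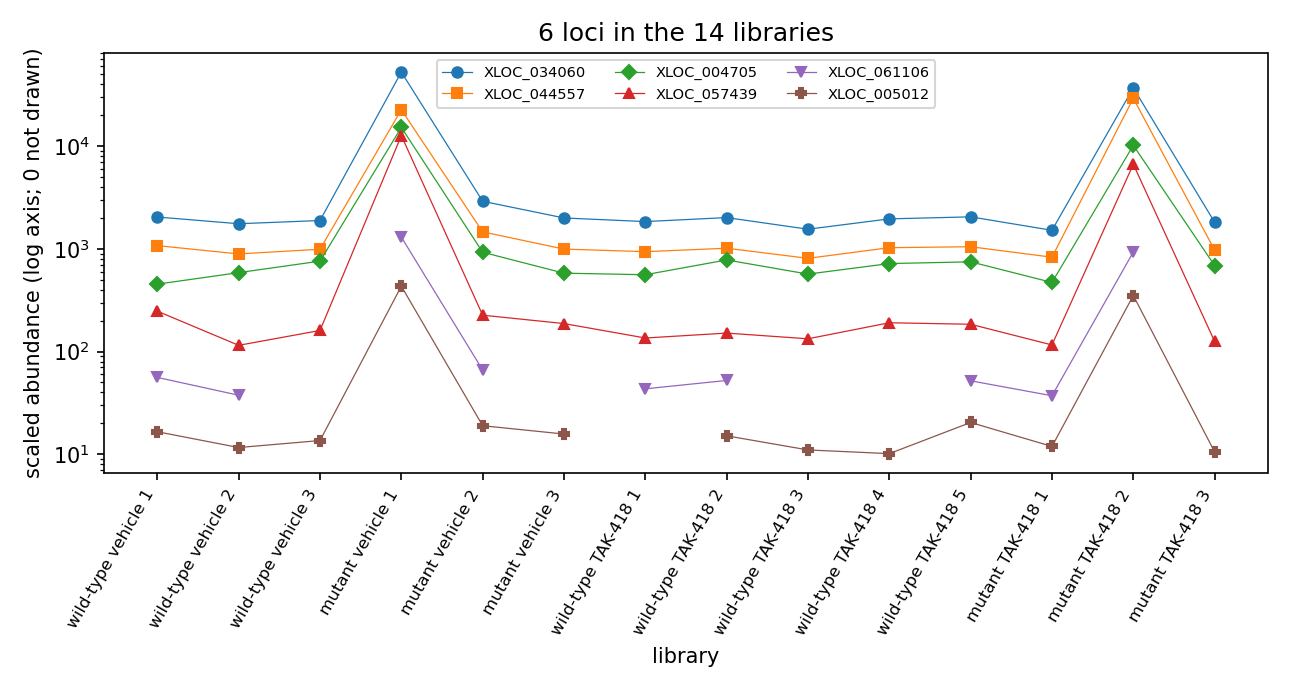
Scaled abundance on a log axis of the 6 loci in each of the 14 libraries, with 1 marker and line per locus and values of 0 not drawn. Mutant vehicle replicate 1 and mutant TAK-418 replicate 2 stand above the other 12 libraries at all 6 loci, by 22.8 and 29.5 times the median of the others for XLOC_044557.

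A few small structural RNA genes, Rn7sk, Rn7s1, Rn7s2 and Rnu2-10, were picked out after their values were seen because they were also high in these 2 libraries, and small RNA genes as a class were not counted. Rn7sk, the RNA that holds the elongation factor P-TEFb inactive, had a scaled abundance of 24.7 in mutant vehicle replicate 1, 15.2 in mutant TAK-418 replicate 2 and 0 to 1.07 in the other 12. Rn7s1, a gene for the RNA of the signal recognition particle, had 2215 and 1077 in the 2 libraries, 1.16 in wild-type vehicle replicate 2 and 0 in the other 11. Their part in the levels of the 6 loci was not tested. The choroid plexus markers summed to 5065 in the first of the 2 libraries and to 20.8 in the second.

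The authors' deposited tables call few of the loci. In the vehicle table, which chose them, 19 of 4862 tested loci without a symbol had q under 0.05, where 0.224% of all 32966 tested loci were called. Of these, 15 were higher in the mutants, against 0.133% of all tested loci, and 4 lower, against 0.091%, and nothing is read from these counts. In the authors' deposited table of genotype under TAK-418, 19 of 3300 tested were called (0.576%), against 0.218% of all 32634 tested loci. Of these, 18 were higher in the mutants, where 0.162% of all tested loci were called higher, and 1 was lower, where 0.0552% were. The median log2 change over the 3104 loci with a finite value was 1.24, against 0.12 over all tested loci. That median leaves out loci at 0 in either group. At 150 bases the smallest value above 0 was 0.551 FPKM in wild-type and 2.50 in mutant TAK-418. The part of that gap in the median was not tested, so the median is not read as a rise in the mutants. The same median was -0.017 for mutant against wild-type vehicle. It was -0.40 for mutant TAK-418 against wild-type vehicle and 1.62 for mutant vehicle against wild-type TAK-418. In the authors' deposited table of mutant TAK-418 against wild-type vehicle, 18 of 4336 were called (0.415%), where 0.324% of all tested loci were. Of the 18, 13 were higher, where 0.129% of all tested loci were called higher, and 5 lower, where 0.194% were. In the authors' deposited table of mutant vehicle against wild-type TAK-418, 25 of 4278 were called (0.584%), where 0.611% of all tested loci were. Of the 25, 21 were higher, where 0.434% of all tested loci were called higher, and 4 lower, where 0.177% were. These tables share groups with the others.

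For 10 of the 19 loci called under TAK-418 fewer than 3 of the 8 libraries held a transcript, and for 2 of these none did, so the library values say little on them. At the other 9 the library values of the genotypes overlapped. For 10 of the 19 mutant TAK-418 replicate 2 alone lay above the wild types. The 6 loci above were among the 19 and were called in all 4 tables, as were XLOC_029817, XLOC_035312, XLOC_067994 and XLOC_068147.

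XLOC_057439 had 123 FPKM in wild-type TAK-418 and 1801 in mutant TAK-418 in the authors' deposited table, with q = 0.0240. XLOC_005012 had 13799.1 and 124375.0 there, and XLOC_004705 had 141 and 983. XLOC_068147 (chr8:15519773-15520126) had 90.9 and 807 in that table, and a transcript in 2 libraries, with a scaled abundance of 25232 in mutant vehicle replicate 1 and 275 in mutant TAK-418 replicate 2. XLOC_029817 (chr16:17222317-17222487, 7112 bases from Rimbp3) had 3103 and 21513 in the authors' deposited table, whereas its transcripts were in wild-type vehicle replicate 2 at 295, mutant vehicle replicate 1 at 6342 and wild-type TAK-418 replicate 1 at 300.6. No mutant TAK-418 library held a transcript of XLOC_029817. The only locus called lower, XLOC_037321 (chr19:37235121-37237899), had 6.84 and 5.12 in the authors' deposited table (q = 0.0460). Its scaled abundance was 0.977, 0.919, 0.899, 0.517 and 1.19 in wild-type and 0.516, 0.599 and 0.987 in mutant TAK-418 libraries, which overlapped.

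The test across libraries called none of the loci. With limma on log2(scaled abundance + 0.9), 12844 loci of the tables had a value in at least 3 of the 8 TAK-418 libraries, and 1 of them had an adjusted p under 0.05 (0.00779%). Of the 7224 loci without a symbol, 133 passed that filter, 0 were called and 16 had an unadjusted p under 0.05, where 6.14% of all tested loci had one. The 16 include the 3 described next, which passed the filter through the mutants alone, so nothing is read from that count. It was 19 of 111, 9 of 106 and 11 of 108 without mutant TAK-418 replicates 1, 2 and 3.

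The 3 loci with the smallest p held a value in the 3 mutant TAK-418 libraries and in none of the 5 wild-type ones. They passed the filter through the mutants alone and had to differ, so their values are given without a fitted difference. XLOC_041408 (chr2:3050109-3050560, 15013 bases from WI1-2764C4.1) had 1.86, 0.973 and 1.13 in the mutants, from transcripts of 30, 17 and 18 steps. In vehicle it had 2.23, 0.904 and 0 in wild types and 0.344, 0 and 2.55 in mutants, so the genotypes overlapped there. XLOC_017653 (chr12:113321861-113322100), in the immunoglobulin heavy chain region, had 0.292, 0.330 and 0.297 in the TAK-418 mutants, from 3 or 4 steps each. XLOC_016937 (chr12:47138960-47139174) had 0.242, 0.361 and 0.605.

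A single library could bring in other loci. Without wild-type TAK-418 replicate 3 the limma fit called XLOC_034782 (chr18:14102964-14103439), which had 0, 0, 5.70, 0 and 0 in wild-type and 5.81, 4.32 and 5.21 in mutant TAK-418 libraries. Leaving out that library removed its only wild-type value, which fixes the call. Without mutant TAK-418 replicate 1 it called XLOC_011736 (chr11:59390597-59398063, in Gm15755), which had 3.55, 4.08, 3.09, 3.93 and 3.12 in wild-type and 3.69, 0.155 and 0 in mutant TAK-418 libraries.

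A small set of the loci had introns. A multi-exon transcript was assigned to 154 loci in at least 1 library, to 32 in 13 or 14 libraries and to 23 in all 14. RefSeq has a gene at 27 of those 32 and GENCODE M21 one at 6, and 5 have neither. Their median scaled abundance over the libraries ran from 0.820 to 8.36, and the coefficient of variation from 13.5% to 59.2% with a median of 31.3%. At 15 of the 32 an intron with identical ends was assembled in all 14 libraries. All 32 passed the limma filter and 0 were called. The wild-type and mutant TAK-418 libraries did not overlap at 3 of them, XLOC_029396, XLOC_039073 and XLOC_074056. The share of all tested loci without such overlap was not counted, so nothing is read from these 3.

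The 6 spliced loci described next had the highest median abundance of the 23 with a multi-exon transcript in all 14 libraries. XLOC_068178 (chr8:19704270-19707760) lies at 4930467E23Rik, a protein-coding gene in RefSeq, and had a scaled abundance of 5.87 to 11.7 with a median of 8.36. XLOC_053681 (chr5:104571674-104701143) lies at Gm31255, with up to 6 exons and values from 6.11 to 12.6. XLOC_068713 (chr8:72548408-72559530) starts inside the promoter window of Med26, a gene for a Mediator subunit, 138 bases from the nearest named locus. It had a single intron of 600 bases, assembled in all 14 libraries, and values from 4.79 to 9.73. XLOC_007324 (chr10:22054859-22058590, at the long noncoding RNA gene Gm34267) varied least of the 32, from 4.66 to 6.84.

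XLOC_029396 (chr16:39175515-39188914) covers the lincRNA gene Gm36742. It had 4.79, 3.88 and 2.96 in wild-type vehicle, 5.57, 5.51 and 5.51 in mutant vehicle, 3.12, 1.58, 2.36, 3.92 and 4.32 in wild-type TAK-418, and 4.36, 5.58 and 5.69 in mutant TAK-418 libraries. Every mutant library was above every wild type of the same treatment, by as little as 4.36 against 4.32 under TAK-418. The share of all tested loci without overlap was not counted, so nothing is read from this order. Under TAK-418 the fitted difference was 0.67 ± 0.24 (SE), which did not pass the limma threshold (adjusted p = 0.754).

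XLOC_031523, whose sequence opens the set above, lies 318 bases from Mir7b, the gene of a microRNA found in neurons. Its one intron of 341 bases was assembled with the same ends in all 14 libraries. The scaled abundance was 5.28, 4.37 and 5.86 in wild-type vehicle, 4.14, 3.83 and 3.89 in mutant vehicle, 3.64, 4.68, 4.10, 4.96 and 4.57 in wild-type TAK-418, and 3.53, 4.08 and 4.72 in mutant TAK-418 libraries. The genotypes overlapped under TAK-418, where the fitted difference was -0.08 ± 0.11 (SE, limma adjusted p = 0.889).

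**Figure D5:**
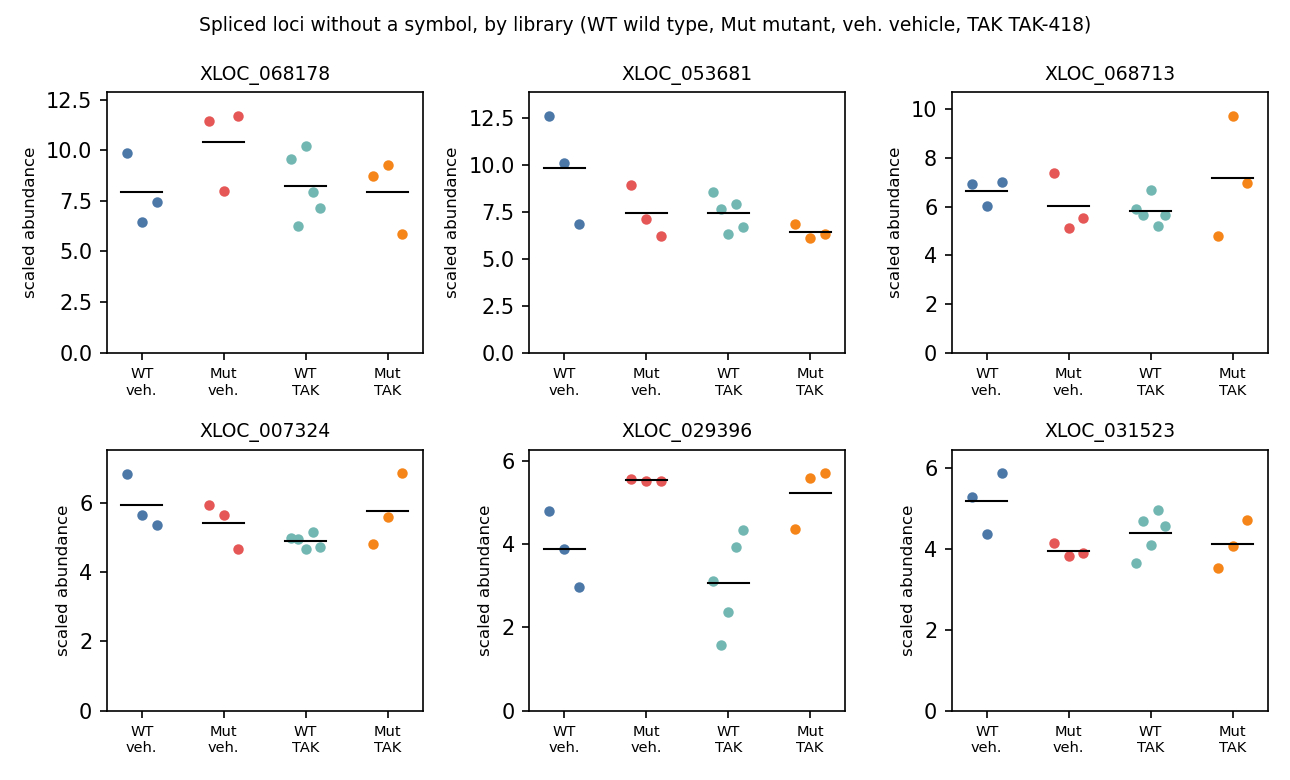
Scaled abundance of the 6 spliced loci in each library by group, with points for libraries and lines for group means on axes from 0. The mutant libraries of XLOC_029396 lie above the wild types of the same treatment, from 4.36 to 5.69 against 1.58 to 4.32 under TAK-418, and the groups of XLOC_031523 overlap under TAK-418. The share of all tested loci without overlap was not counted.

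Some loci of up to 1000 bases at exons of GENCODE lincRNA or antisense RNA genes were examined. Among those, XLOC_032631 was the one unspliced locus with a transcript in all 14 libraries, and it was chosen for that after its values were seen. Whether its reads also map elsewhere in the genome was not tested. Its scaled abundance was 129, 62.7 and 55.3 in wild-type vehicle, 137, 74.6 and 94.7 in mutant vehicle, 88.5, 28.0, 48.0, 44.6 and 30.4 in wild-type TAK-418, and 98.4, 87.2 and 82.5 in mutant TAK-418 libraries. Wild-type TAK-418 replicate 1 lay within the mutants and the other 4 wild types below them. In the authors' deposited table the level was 34.8 FPKM in wild-type and 50.6 in mutant TAK-418 (q = 0.0240). The limma difference was 1.01 ± 0.34 (SE) with an adjusted p of 0.754.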

How the data were processed

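The 14 libraries are RNA-seq of mouse hippocampus, and the submitters' processing notes name TopHat2 2.1.0, FastQC and the build mm10 with no role. Transcripts were assembled per library with CLASS 2.1.7, per the file headers, and each deposited transcript carries an abundance score from the assembler whose scale no label names. The 4 tables of group comparisons have the column layout of Cuffdiff, and the authors deposited in them 1 FPKM value per group, with libraries pooled, so replicate spread and depth behind these values are unknown. The deposited tables also hold the authors' log2 fold changes and their p-values and q-values.

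Loci were set beside GENCODE M21 and RefSeq (GRCm38) with bedtools 2.31.1. A transcript went to the locus that held at least 50% of its exonic bases, with the most similar span first and, on equal spans, a named locus first. Abundances were summed per locus and scaled by the median of ratios over 10517 loci with a value in all 14 libraries. In each library the abundance times length of single-exon transcripts came in whole multiples of 1 step. The step stands in for depth and limits the precision of the lowest values.

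Genotype was compared in the 8 TAK-418 libraries, whose values the rule did not use, with exact two-sided permutation tests and with limma 3.58.1. The limma fit used log2(scaled abundance + 0.9) for loci with a value in at least 3 libraries, with Benjamini-Hochberg adjustment over all loci tested. Some loci took their ends from these libraries, so the list of loci is not independent of them. On simulated data with 200 changed loci among 12844, 77% of changes of 1 and 86% of changes of 2 on the log2 scale were recovered, with 7 wrong calls. The simulated noise was normal, with the mean and spread of each tested locus, and 133 of these were loci without a symbol. Recovery was not counted for those loci alone, so these shares do not say how many changes would be found among them. Alternatives changed the pseudocount, filter, scaling, assignment, kind of transcript, minimum level and libraries.

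Loci were named by rule: the 8 highest, the 6 spliced in most libraries (ties by median abundance), the first calls under TAK-418, the 3 smallest limma p, those beside the minimum, the longest and shortest, 1 per annotated biotype, and those called in most tables. The members and lists were chosen with earlier results of these data known. No genome sequence was used here, so sequences come from GENCODE transcripts and RefSeq promoter windows. The sequence of 1 further stretch is not reported here.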

Additional observations from a re-analysis of the deposited data

Results flagged for a closer look

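A screen of 18 measures asked whether 1 of the 5 wild-type TAK-418 libraries lay far from the other 4, which chance alone gives in about 1 in 20. Replicate 1 stood apart in the number of loci without a symbol that held a multi-exon transcript, with 71, where the next library had 53 and the lowest 50. Its step was 0.00597 per kilobase, against 0.0167 to 0.0285 in the other 13 libraries, and the part of depth in this count was not tested. Replicate 3 stood apart in the summed scaled abundance of these loci, with 3640.5, where the next library had 4156 and the highest 4344.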

How the results depend on the processing

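The genotype difference under TAK-418 in the number of loci with a transcript was 331 and ran from 286 to 424 when 1 library was left out. It passed the threshold only without wild-type TAK-418 replicate 3 (424, exact permutation p = 0.0286), the only wild type that overlapped the mutants. Loci count for the group that gave their ends, so nothing is read from that pass. The difference was 107 with a minimum level of 2, 15.3 for transcripts of 1 or more and 2.13 for multi-exon transcripts. The summed abundance differed by 1.39 on the log2 scale and ran from -0.10 to 2.20, the lowest without mutant TAK-418 replicate 2. It was 0.77 without the 6 loci high in 2 mutant libraries (exact permutation p = 0.161), an alternative chosen after seeing the data, as was the use of named loci with a span of their own. The share of loci with a transcript minus that of named loci was -55.3 to -54.2 points with 1 library left out. The limma fit called 0 of the loci, 1 with a pseudocount of 0.09 (XLOC_041408, present in the mutants alone), and 0 to 1 with 1 library left out. Over 17 named loci, 223 single values kept their direction and side of the threshold and 11 turned. With 1 library left out, the log2 differences ran from -0.38 to 2.54 for XLOC_057439, -0.23 to 1.98 for XLOC_004705, -0.10 to 2.47 for XLOC_044557, -0.18 to 2.13 for XLOC_034060, -0.78 to 4.23 for XLOC_061106 and -0.0016 to 0.45 for XLOC_068713, each lowest without mutant TAK-418 replicate 2. XLOC_031523 ran from -0.17 to 0.0061, the highest without mutant TAK-418 replicate 1. XLOC_068178, at -0.05, turned to 0.083 with multi-exon transcripts only, 0.0083 and 0.030 without wild-type TAK-418 replicates 1 and 3, and 0.14 without mutant TAK-418 replicate 3, and was lowest, -0.16, without mutant TAK-418 replicate 2. Beyond the library left out, the cause was not tested. No paired analysis was possible because replicate numbers are accession order only and pair no libraries. The smallest FPKM value above 0 was highest at the shortest loci, and the part of depth in this was not tested.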
